A study of Mus musculus with 7 samples.

Results

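Homeostatic microglia genes are the 9 genes *P2ry12*, *Tmem119*, *Cx3cr1*, *Csf1r*, *Aif1*, *Fcrls*, *Siglech*, *Selplg* and *Gpr34*. They were found by symbol in an annotation of the mouse assembly GRCm38, among the 52550 genes of the count table, and all 9 were among the 20128 genes that passed the filter on low counts. Levels were measured by total RNA-seq of retina from 12.5 week old mice of the C57BL/6J strain, 4 wild type (WT) and 3 homozygous for the SCA7 knock-in allele, with a library from the 2 retinas of each mouse. In the knock-in mice both copies of *Atxn7* carry an expanded CAG repeat and are driven by the gene's own promoter, so every cell that uses *Atxn7* carries the change, microglia included. Males and females were used in the study, and the labels do not give the sex of a mouse. *Xist*, read as a mark of female cells, was low in all 7 libraries (log2 CPM of total counts from -3.90 to -1.86), so none stood out as female.

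Microglia are the resident macrophages of the brain and retina. In healthy tissue they extend branched processes, survey the neurons around them and express a set of surface receptors by which they are told from other macrophages. Microglia that respond to damage commonly lose part of this set while they gain lysosomal and lipid handling genes, so the set is read to set the number of microglia apart from their activation. The comparison of WT and SCA7 retina addresses how these genes stood at an age of 12.5 weeks, but in bulk samples more cells of a type and more RNA per cell cannot be told apart.

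Total counts lay between 56497675 and 96635832 per library. The 9 genes together took 1936 to 2431 counts in each WT library and 3680 to 5856 in each SCA7 library, and the lowest count of any of them was 45. Values are CPM, counts as a share of a library size scaled by TMM, whose factors were 0.890 to 0.974 in WT and 1.06 to 1.09 in SCA7. The rod genes, the markers of the most abundant retinal neuron, summed to 59820 to 61962 CPM in WT and 15725 to 20418 CPM in SCA7. *Atxn7* itself was at 39.2 ± 4.26 CPM in WT mice (SD, n = 4) and at 37.6 ± 2.99 CPM in SCA7 mice (SD, n = 3), and the count does not separate the alleles. Markers of the retinal pigment epithelium, a tissue that adheres to the retina at dissection, summed to 99.8 to 204 CPM in WT and 16.3 to 38.5 CPM in SCA7. Among them *Rgr* had a log2 fold change of -3.57 and *Lrat* of -3.21, followed by *Rpe65* (-2.29) and *Ttr* (-2.17), all downregulated, while *Best1* (0.08) was not called. The part of rod and pigment epithelium genes in the results was not tested.

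The promoters of 5 of the 9 genes were taken from the RefSeq table of GRCm38.p6, which gives 250 bases before to 50 after each start. *Csf1r* was left out by plan, whether or not the table holds it, so the matches do not cover it. The 5 promoters were searched on both strands for the letters bound by PU.1, the myeloid transcription factor encoded by *Spi1*. The long form GAGGAAGT was in none of the 5 and in 3.2% of the 32851 promoters of the table, and the composite of PU.1 and IRF factors (GGAA, 2 bases of any kind, then GAAA) was in none of the 5 and in 2.72% of the table. The shorter form AGGAAG, which the long form contains and which was added after the data were seen, was in 2 of 5 and in 35.4% of the table. It had 1 match for *P2ry12* and 4 for *Fcrls*. The stretches below show a match of each gene, in capitals, since these are the reference gene and the gene that departs from it in the comparisons that follow. That of *P2ry12* lies at chr3:59263020-59263049 and that of *Fcrls* at chr3:87263600-87263677, both on the minus strand. The stretch of *Fcrls* is free of annotated exons and lies before the RefSeq start, but inside the annotated gene body, which begins at 87263738.
P2ry12: aagctaacaagaAGGAAGttccccagtgac
Fcrls: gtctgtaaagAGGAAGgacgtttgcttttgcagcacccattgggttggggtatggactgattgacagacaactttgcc
A match of this kind is a description of letters and is no evidence that the factor binds there.

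In SCA7 retina, 8 of the 9 homeostatic microglia genes were upregulated, that is, had FC (SCA7/WT) above 1.3 with an adjusted p under 0.05 in the quasi-likelihood test of edgeR. None was downregulated by edgeR, DESeq2 or limma-voom, and at an unadjusted p under 0.05 all 9 were higher in SCA7. Over all genes tested, 7.47% were upregulated and 7.91% downregulated. All 9 had a log2 fold change above 0, as had 47.5% of all genes tested. The log2 fold changes lay between 0.54 and 2.12 with a median of 0.78, against a median of -0.02 over all genes tested. In 8 of the 9 genes every SCA7 library was above every WT library, a pattern seen in 19.3% of all genes tested. Summed over the 9 genes, the level was 30.5 to 36.3 CPM in WT mice and 56.9 to 63.0 CPM in SCA7 mice. All 8 rod genes of a marker list were downregulated, with a median of -1.20, among them *Gnat1* (-1.76), *Cnga1* (-0.99), *Nr2e3* (-0.86) and *Pde6a* (-0.67). With scaling to total counts only, the median of the 9 genes was 0.97 and that of all genes 0.17.

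**Figure D1:**
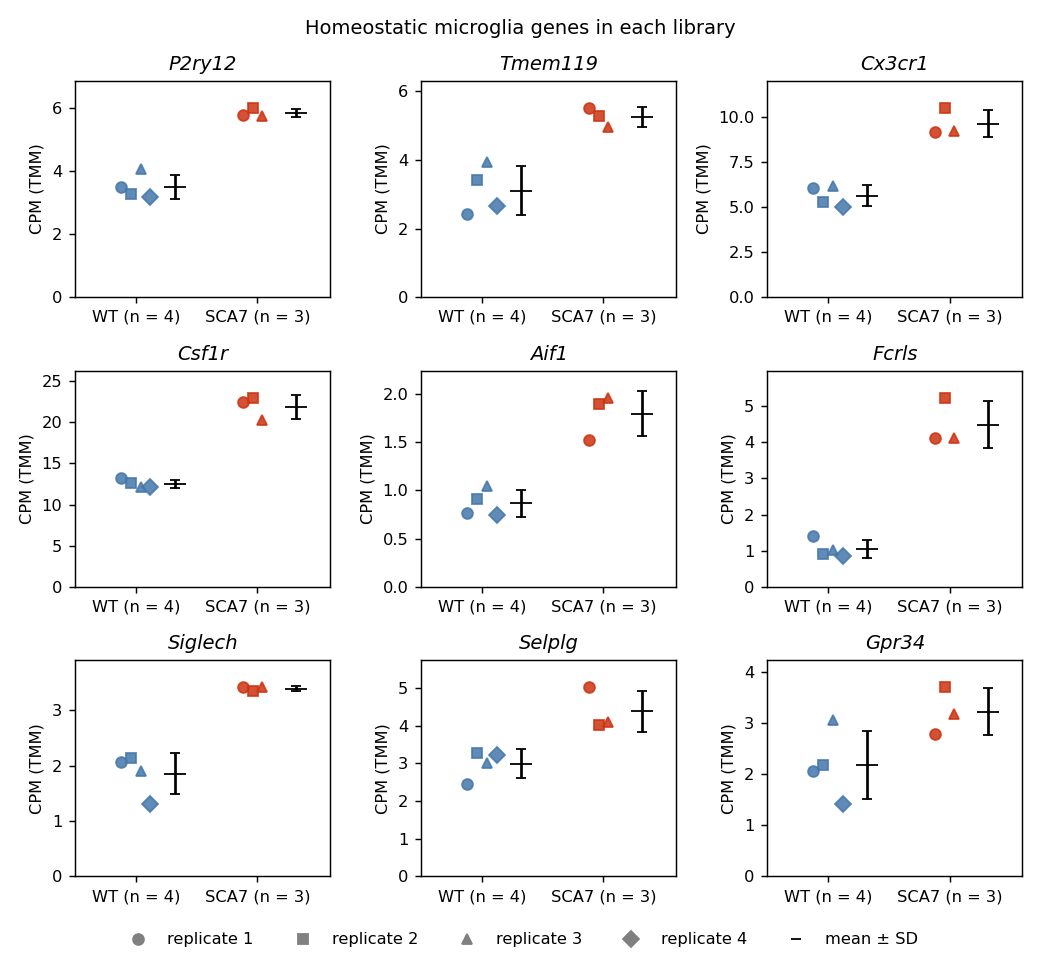
CPM of the 9 genes in each library (points, shaped by replicate number) with the mean ± SD of the WT (n = 4) and SCA7 (n = 3) mice in black; each axis starts at 0. The groups are apart in 8 panels, and in that of *Gpr34* WT replicate 3, at 3.06 CPM, is above SCA7 replicate 1, at 2.80 CPM.

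*P2ry12* (ENSMUSG00000036353; chromosome 3 from 59216272 to 59262871, minus strand, GRCm38) encodes the receptor for ADP by which microglial processes find injured cells. Its level was 3.48, 3.29, 4.05 and 3.17 CPM in the WT mice and 5.77, 6.00 and 5.75 CPM in the SCA7 mice. The SCA7 mice lay close together, all above the highest WT mouse. The mean was 3.50 ± 0.392 CPM in WT (SD, n = 4) and 5.84 ± 0.138 CPM in SCA7 (SD, n = 3). The log2 fold change of 0.74 had a standard error of 0.11 and an adjusted p of 3.2e-04 (quasi-likelihood test of edgeR, p adjusted after Benjamini-Hochberg, here and for each gene that follows). *P2ry12* lies within *Med12l* on the opposite strand, with 9 exon bases in common. *Med12l*, a Mediator subunit gene, had 49.7 ± 3.99 CPM in WT and 44.8 ± 0.451 CPM in SCA7, without a call (adjusted p = 0.117).

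*Cx3cr1* (ENSMUSG00000052336; chromosome 9 from 119901616 to 120069879, minus strand) encodes the receptor for fractalkine, the ligand that neurons present to microglia. It had 6.06, 5.28, 6.19 and 5.00 CPM in the WT mice and 9.18, 10.5 and 9.21 CPM in the SCA7 mice. SCA7 replicate 2 was the highest and the groups did not overlap. In the fit *Cx3cr1* rose by 0.78 on the log2 scale (standard error 0.10, adjusted p = 1.4e-04). The annotated gene body spans 9 other genes, of which 1, on the opposite strand, shares 78 exon bases with it and had at most 4 counts. Of the other genes there, *Wdr48* and *Gorasp1* were not called, *Ttc21a* was downregulated and *Csrnp1* upregulated.

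*Csf1r* (ENSMUSG00000024621; chromosome 18 from 61100598 to 61132149, plus strand), the receptor tyrosine kinase on which microglia depend for survival, had the most counts of the set. It was at 13.2, 12.6, 12.1 and 12.1 CPM in the WT mice and at 22.5, 23.0 and 20.2 CPM in the SCA7 mice. The WT mice were within a narrow range, far below each SCA7 mouse. Its log2 fold change of 0.81 had the smallest standard error of the 9 genes, 0.07 (adjusted p = 6.3e-06). *Hmgxb3* shares 873 exon bases with *Csf1r* on the opposite strand and had a log2 fold change of 0.01 (adjusted p = 0.912).

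*Gpr34* (ENSMUSG00000040229; chromosome X from 13632089 to 13640858, plus strand), a receptor for lysophosphatidylserine, was the gene without a call in the edgeR fit. It had 2.07, 2.18, 3.06 and 1.42 CPM in the WT mice and 2.80, 3.70 and 3.19 CPM in the SCA7 mice. WT replicate 3 was above SCA7 replicate 1, so the groups overlapped. On the log2 scale the difference was 0.58 (standard error 0.21, adjusted p = 0.059). Without WT replicate 3 it was 0.77 (adjusted p = 0.0027) and all 9 genes were called. *Gpr34* was also called by the DESeq2 Wald test (adjusted p = 0.027) and limma-voom (adjusted p = 0.038). By edgeR it was called without the filter, with total counts only, with the replicate block (adjusted p = 0.025) or with *Xist* as a covariate. *Xist* was low in every library (log2 CPM from -3.90 to -1.86), so that covariate cannot stand for sex. *Gpr34* lies in *Cask* on the opposite strand without common exon bases, and *Cask*, a synaptic scaffold gene at 79.9 ± 4.20 CPM in WT, had a log2 fold change of 0.28 (adjusted p = 0.0057).

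*Tmem119* (ENSMUSG00000054675; chromosome 5 from 113793729 to 113800516, minus strand) encodes a membrane protein that is a usual marker of microglia against other macrophages. It had 2.41, 3.43, 3.94 and 2.65 CPM in the WT mice and 5.51, 5.27 and 4.95 CPM in the SCA7 mice. The WT mice spread more than the SCA7 mice, and the groups did not overlap. *Tmem119* rose by 0.76 on the log2 scale (standard error 0.15, adjusted p = 0.0033).

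*Siglech* (ENSMUSG00000051504; chromosome 7 from 55768178 to 55778925, plus strand) encodes a lectin for sialic acids that signals through the adaptor encoded by *Tyrobp*. It had 2.07, 2.14, 1.89 and 1.32 CPM in the WT mice and 3.41, 3.34 and 3.41 CPM in the SCA7 mice. WT replicate 4 was the lowest, and the SCA7 mice were nearly equal, with an SD of 0.0419 CPM (n = 3). *Siglech* rose by 0.87 on the log2 scale (standard error 0.16, adjusted p = 0.0014). Plasmacytoid dendritic cells also express *Siglech*, and their genes *Ccr9*, *Klk1* and *Ly6d* were too low to be tested, at group means of 0 to 0.0674 CPM.

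*Selplg* (ENSMUSG00000048163; chromosome 5 from 113818536 to 113832644, minus strand) encodes PSGL-1, the ligand of selectins on leukocytes. It had 2.46, 3.29, 3.02 and 3.23 CPM in the WT mice and 5.02, 4.02 and 4.10 CPM in the SCA7 mice. The groups did not overlap, with SCA7 replicate 1 above the rest. Its log2 fold change of 0.54 was the lowest of the 9 (standard error 0.13, adjusted p = 0.0097). Its call was lost without SCA7 replicate 1, where the log2 fold change was 0.44 (adjusted p = 0.063). *Selplg* and *Tmem119* are neighbours, 18019 bases apart.

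*Aif1* (ENSMUSG00000024397; chromosome 17 from 35170991 to 35176068, minus strand) encodes IBA1, the actin binding protein by which microglia are stained. Its counts were low, 45, 65, 56 and 49 in the WT mice and 94, 162 and 202 counts in the SCA7 mice. In CPM these were 0.769, 0.909, 1.05 and 0.749 against 1.53, 1.90 and 1.96. No WT mouse reached the lowest SCA7 mouse. On the log2 scale *Aif1* rose by 1.06 (standard error 0.17, adjusted p = 6.2e-04).

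*Fcrls* (ENSMUSG00000015852; chromosome 3 from 87250758 to 87263738, minus strand) encodes a scavenger receptor of the Fc receptor-like family and is widely used as a marker of homeostatic microglia. It had 1.40, 0.895, 1.01 and 0.841 CPM in the WT mice and 4.13, 5.24 and 4.11 CPM in the SCA7 mice. Each SCA7 mouse was far above WT replicate 1, the highest WT mouse. The WT mean was 1.04 ± 0.253 CPM (SD, n = 4), the SCA7 mean 4.49 ± 0.646 CPM (SD, n = 3). The fold was 4.35 and the log2 fold change 2.12 (standard error 0.17, adjusted p = 3.9e-06). Of all genes tested, 66 (0.328%) had a log2 fold change at least this high.

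**Figure D2:**
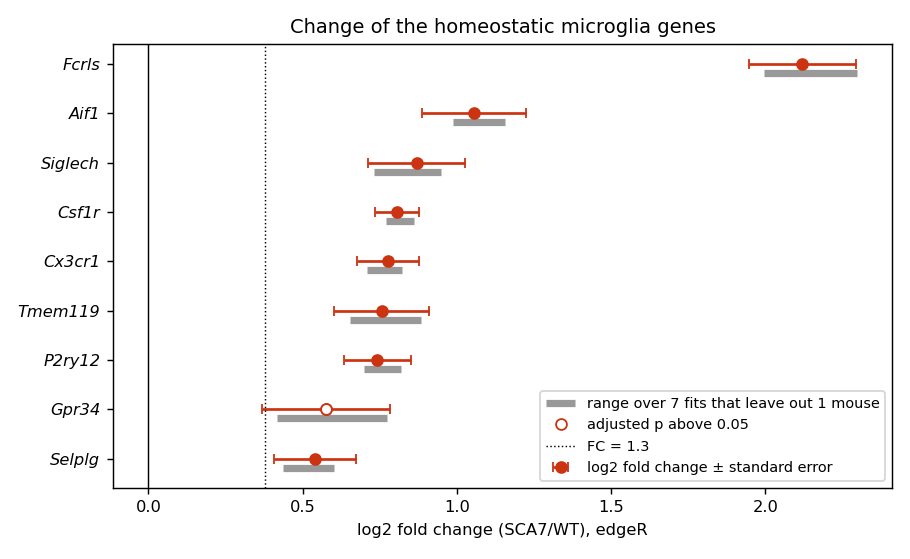
Log2 fold change (SCA7/WT) of the 9 genes with its standard error from the edgeR fit, and in gray the range when each of the 7 mice was left out in turn. *Fcrls* stands at 2.12, the other 8 genes lie between 0.54 and 1.06, and the open point is *Gpr34*, with an adjusted p above 0.05.

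Leaving out a mouse at a time, 7 of the 9 genes were called in all 7 fits, *Selplg* in 6 and *Gpr34* in 1. In these fits the log2 fold change of *Fcrls* stayed between 1.99 and 2.30 and that of *Aif1* between 0.99 and 1.16. Among the WT mice, replicate 3 had the highest value of 5 of the 9 genes and replicate 4 the lowest of 6. WT replicate 3 also stood apart in the pigment epithelium gene *Rgr*, at 40.0 CPM while the others had 80.0 to 82.7 CPM. Without it the median of the 9 genes was 0.82.

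To compare the genes with each other within a mouse, the counts of each were set against those of *P2ry12* in the same library, which needs no scaling between libraries. The log2 ratio of *Fcrls* to *P2ry12* was -1.31, -1.87, -1.99 and -1.90 in the WT mice and -0.48, -0.20 and -0.48 in the SCA7 mice. The difference, SCA7 minus WT, was 1.38, without overlap between the groups, which 1.18% of all genes tested also showed in this direction. The exact two-sided permutation test over the 35 splits of the mice gave p = 0.0286, the smallest it can give, and 0.229 adjusted over the 8 ratios. With *Tmem119* in place of *P2ry12* the difference was 1.34 and the exact p was 0.0571. *Fcrls* was the gene of the set whose ratio to *P2ry12* separated the groups. With a smallest possible p of 0.0286, the adjusted p of a lone ratio among 8 cannot pass 0.05, so that it did not says little about *Fcrls*.

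The other 7 ratios overlapped between the groups. The ratio of *Aif1* differed by 0.30 (exact permutation p = 0.114) and that of *Siglech* by 0.15, while *Csf1r*, *Tmem119* and *Cx3cr1* differed by 0.06, 0.04 and 0.03. The ratios of *Gpr34* and *Selplg* were lower, by -0.14 and -0.20 (exact permutation p = 0.543 and 0.314). Apart from *Fcrls*, the groups could not be separated by these ratios given the spread between mice, which does not show that the ratios were equal. Relative to *P2ry12*, 80.3% of all genes tested were lower in every SCA7 library than in every WT library.

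**Figure D3:**
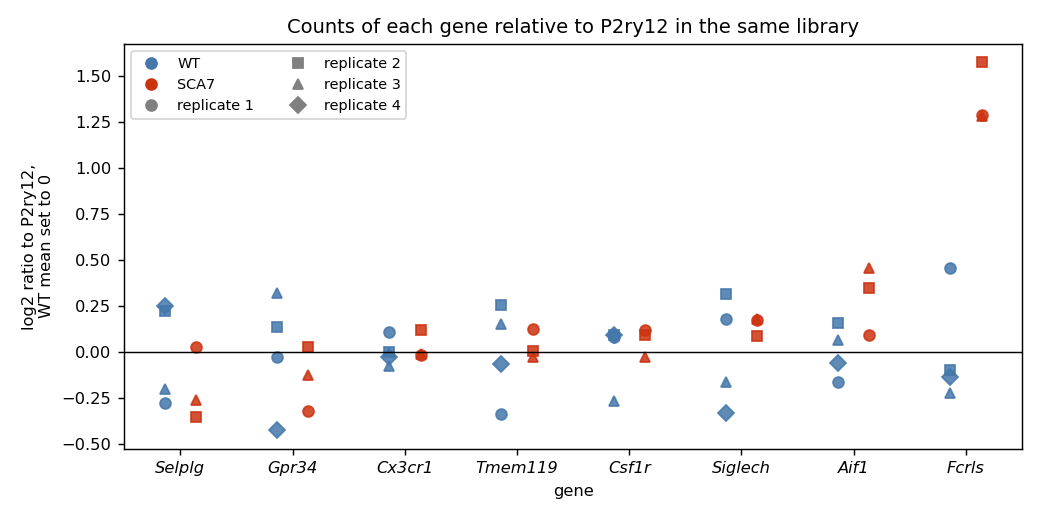
Log2 ratio of the counts of each gene to those of *P2ry12* in the same library, with the WT mean of each gene set to 0, for WT (blue) and SCA7 (red) mice. Points of the groups mix for 7 genes, and for *Fcrls* the SCA7 mice are apart, 1.38 above WT on average.

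Levels were compared between genes per length, as counts over the DESeq2 size factor per kb of transcript (RPK). In WT retina, with the median length of the annotated transcripts, *Csf1r* had the highest level, 614 ± 26.1 RPK (SD, n = 4), followed by *Selplg* with 374 ± 47.6 RPK and *Tmem119* with 166 ± 37.7 RPK. *P2ry12* had 112 ± 12.3 RPK and *Cx3cr1* 104 ± 10.5 RPK. *Aif1*, *Gpr34* and *Siglech* were at 77.4, 75.6 and 71.3 RPK, and *Fcrls* was lowest at 48.3 ± 11.7 RPK. Neighbours in this order overlapped over the mice, other than *Csf1r* with *Selplg* and *Selplg* with *Tmem119*. The median over the tested genes with an annotation was 398 RPK, so 8 of the 9 genes were below it.

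The order depends on the length. Per kb of the union of exons, *Selplg* went from the second place to the sixth, at 48.5 ± 6.16 RPK, because its median transcript is 0.553 kb and its exon union 4.27 kb. *Csf1r* stayed first, at 150 ± 6.34 RPK, and was then the only gene apart from its neighbour. *Fcrls* stayed last in WT, at 30.7 ± 7.43 RPK. On this length the median over the tested genes with an annotation was 171 RPK, and all 9 genes were below it. In SCA7 retina, on the same length, *Fcrls* had a mean of 134 RPK, in the fifth place and next below *Cx3cr1* at 149 RPK.

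**Figure D4:**
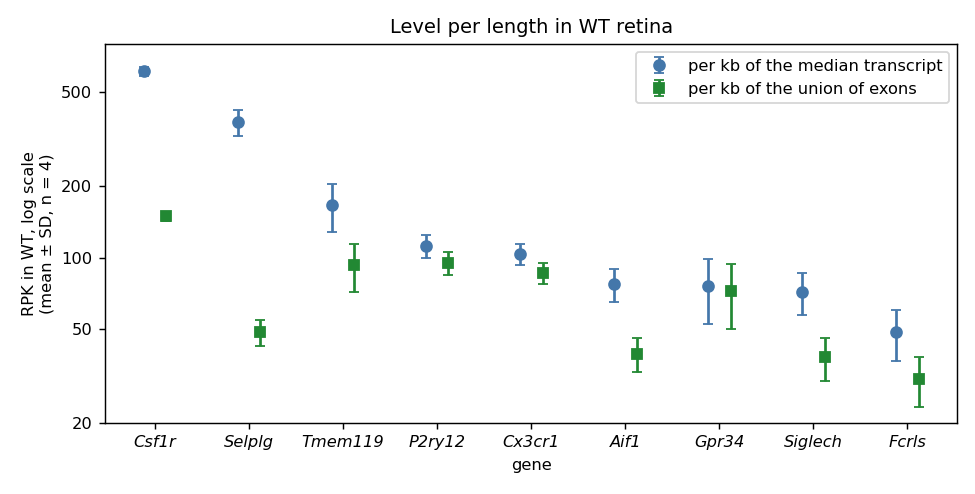
RPK of the 9 genes in WT retina on a log axis (mean ± SD, n = 4), per kb of the median transcript (circles) and per kb of the union of exons (squares). *Csf1r* is highest and *Fcrls* lowest on both, and *Selplg* moves from 374 to 48.5 RPK.

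Among the genes that followed the 9 genes most closely over the 7 libraries were *Galk2*, *Rp9*, *C1qb* and *Pld4*, with Pearson r of 0.996 to 0.998 between their log2 CPM and the mean log2 CPM of the set. *C1qb* encodes a chain of complement C1q and is abundant in microglia. *Pld4* encodes a lysosomal exonuclease of myeloid cells, *Galk2* a sugar kinase and *Rp9* a nuclear protein linked to retinitis pigmentosa. The log2 fold changes were 1.44 for *C1qb*, 1.12 for *Pld4*, 0.36 for *Galk2* and 0.20 for *Rp9*, so the likeness is in pattern and not in size. Any gene that separates the genotypes has a high r here, and 493 of the 14711 genes ranked reached 0.95, so the values describe a pattern of 7 libraries that share 2 genotypes. Among the 9 genes themselves r was 0.990 for *P2ry12* and lowest for *Gpr34* and *Selplg*, at 0.838 and 0.813.

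Another 3 microglia lists were set beside the 9 genes. Of 10 other homeostatic microglia genes, 8 were upregulated, with a median of 0.71 on the log2 scale, led by *Cd33* (1.19), *Bin2* (0.86) and *Sall1* (0.81), the last a transcription factor that maintains microglial identity. The genes without a call were *Slc2a5* at 0.41 and *Mertk* at 0.04. *Mertk*, a receptor for engulfment that pigment epithelium and Müller glia also express, was at 9.23 ± 1.46 CPM in WT and at 9.51 ± 1.20 CPM in SCA7.

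Of 16 genes of the microglia and macrophage lineage, 13 were upregulated, with a median of 1.12. The C1q chains *C1qc*, *C1qb* and *C1qa* had the largest log2 fold changes, 1.53, 1.44 and 1.44. Among the genes without a call were *Runx1* and *Lyl1*, which encode transcription factors, at 0.15 and 0.34. Of 12 genes of disease-associated microglia, 8 were upregulated, with a median of 0.87. *Cst7*, which encodes cystatin F, had 1 to 7 counts in each WT library and 61 to 134 in each SCA7 library, a log2 fold change of 4.27. It was followed by the integrin gene *Itgax* (2.90) and the lectin receptor gene *Clec7a* (1.73). *Lpl*, *Spp1*, *Gpnmb* and *Lgals3* had no call, with log2 fold changes of -0.09, 0.01, 0.17 and 0.54. None of the 38 genes of these lists was downregulated, and none was lower at an unadjusted p under 0.05.

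**Figure D5:**
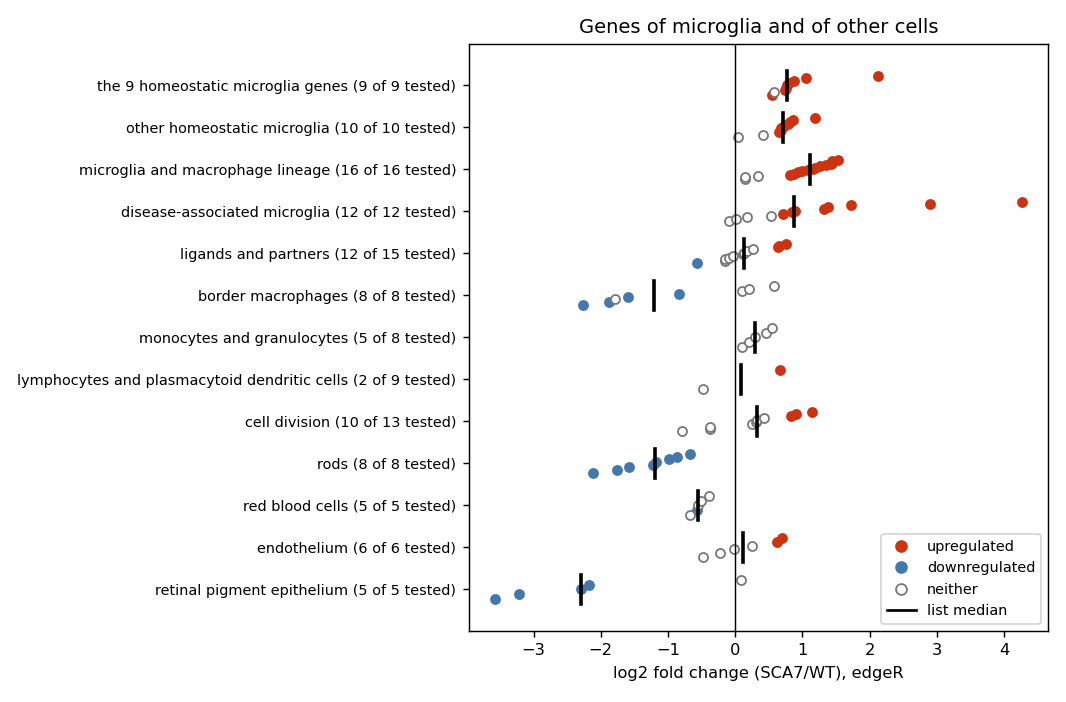
Log2 fold change (SCA7/WT) of each tested gene of the 9 homeostatic microglia genes and 12 comparison lists (points) with the list medians (black bars); filled points are upregulated (red) or downregulated (blue). The 4 microglia lists have medians of 0.71 to 1.12, the border macrophages one of -1.21 and the rods one of -1.20.

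The ligands and partners of the 9 genes were mostly not called. Of 15 genes, 12 were tested, 3 were upregulated and 1 was downregulated, and the median was 0.13 on the log2 scale. *Csf1*, a ligand of CSF1R, had 4.34, 4.17, 4.05 and 4.02 CPM in the WT mice and 7.00, 6.70 and 7.33 CPM in the SCA7 mice, an increase of 0.76 on the log2 scale (edgeR, adjusted p = 6.5e-05). The other ligand of CSF1R, *Il34*, which neurons supply, had 7.06 ± 0.436 CPM in WT and 6.32 ± 0.288 CPM in SCA7 (log2 fold change -0.16, adjusted p = 0.208). *Cx3cl1*, the ligand of CX3CR1, had 76.3 ± 7.11 CPM in WT and 74.4 ± 3.04 CPM in SCA7 (log2 fold change -0.04, adjusted p = 0.756). The ligand genes thus split, with *Csf1* called and *Il34* and *Cx3cl1* not.

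Around P2RY12, *Entpd1*, which encodes the ectoenzyme that breaks down ATP and ADP, was upregulated at a log2 fold change of 0.65, and *Nt5e*, which encodes the enzyme that makes adenosine from AMP and is strong in rods, was downregulated at -0.57. Under scaling to total counts *Nt5e* was no longer called. Of the TGF-beta genes, on whose signal the homeostatic program depends, the receptor gene *Tgfbr2* was upregulated at 0.64. *Tgfbr1*, at 0.27 (adjusted p = 0.0026), was under the FC threshold, and *Tgfb1*, *Tgfb2* and *Tgfb3* were without a call at 0.14, 0.17 and -0.15. The sheddase genes *Adam10* and *Adam17*, whose products release fractalkine from its membrane stalk, had -0.10 and 0.12. The selectin genes *Selp* and *Sele*, partners of *Selplg*, were too low to be tested, at group means of at most 0.0390 CPM.

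Some of the 9 genes are also used by other macrophages and leukocytes. Of 8 genes of border macrophages, which share *Csf1r*, *Cx3cr1* and *Aif1* with microglia, none was upregulated, nor higher at an unadjusted p under 0.05, and 4 were downregulated. Their median was -1.21, and it was -0.71 without WT replicate 4 and -0.82 without WT replicate 3. Among genes with at least 10 counts in every library, the median was 0.09 and 1 gene of the list was downregulated. Their summed level was 16.2 to 18.7 CPM in WT and 10.8 to 13.7 CPM in SCA7. *Cd163* and *Pf4* had the largest decreases, at log2 fold changes of -2.27 and -1.87, and the largest increase was that of *Ms4a7*, 0.58 without a call, before *Stab1* (0.20) and *Cbr2* (0.10). *F13a1* and *Lyve1* were the other downregulated genes. WT replicate 1 had the most *Cd163*, 0.854 CPM where the others had 0.244 to 0.367 CPM, and without it 2 of the 8 genes were downregulated, as without WT replicate 4, SCA7 replicate 1 or SCA7 replicate 3.

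Of 8 genes of monocytes and granulocytes, 5 could be tested and none was called in either direction by edgeR, limma-voom or DESeq2, nor passed an unadjusted p of 0.05, with summed levels of 0.612 to 3.22 CPM in WT and 1.10 to 3.52 CPM in SCA7. *Ccr2*, the defining monocyte receptor, had a mean of 0.102 CPM in WT and 0.158 CPM in SCA7 and a log2 fold change of 0.54 without a call. *S100a9*, *S100a8*, *Plac8* and *Ly6c2* were at 0.46, 0.30, 0.21 and 0.11. Of 9 genes of lymphocytes and plasmacytoid dendritic cells 2 could be tested, and *Cd8a* was upregulated (0.66) while *Ms4a1* was not called (-0.49). The *Cd8a* call was lost in 6 of the 7 fits with a mouse left out. Endothelial genes, 6 tested, had 2 upregulated members, *Kdr* (0.69) and *Cdh5* (0.63), while *Tek* (0.25), *Esam* (-0.23) and *Cldn5* (-0.48) had no call. Of 5 genes of red blood cells, *Hba-a2* (-0.57) was downregulated, and *Alas2* (-0.39), *Hba-a1* (-0.51), *Hbb-bs* (-0.55) and *Hbb-bt* (-0.67) had no call. With a mouse left out, the red blood cell list had no call in 5 cases and 4 downregulated genes without SCA7 replicate 2.

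Genes of cell division were looked at because a larger number of microglia can arise by division. Of 13 genes 10 were tested, 3 were upregulated and none downregulated, with a median of 0.32. *Mki67*, the proliferation marker, had 6 to 11 counts in each WT library and 19 to 28 in each SCA7 library, with a log2 fold change of 1.14 (edgeR, adjusted p = 0.037). *Cdc20* was at 0.90 and *Top2a* at 0.82, while *Ccnb1* (-0.79) and *Plk1* (-0.37) had no call. In 5 of the 7 fits with a mouse left out, those without WT replicates 1, 2 or 4 or SCA7 replicates 1 or 2, a single gene of the list was called, and likewise 1 gene by the DESeq2 Wald test and 1 by limma-voom. The counts do not tell which cells these transcripts came from.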

How the data were processed

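Retina total RNA-seq of 4 WT and 3 SCA7 homozygous knock-in mice was analysed. The authors made stranded libraries depleted of ribosomal RNA, mapped single reads to mm10 with TopHat2 2.0.14 and Bowtie2 2.1.0, counted them per Ensembl gene with HTSeq 0.6.1, and deposited raw counts without normalization. The strand option of HTSeq is not given in the sources used here, so reads of genes that overlap on opposite strands may not be separated. Positions and lengths were taken from GENCODE vM21 (GRCm38), which names 52403 of the genes in the table.

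The 9 genes and the 12 comparison lists (115 genes) were chosen with earlier results of these data known. After filterByExpr and TMM scaling, genotypes were compared by the quasi-likelihood test (robust fit) of edgeR 4.0.16 (R 4.3.3), without covariates, with Benjamini-Hochberg adjustment over 20128 genes. Upregulated means an adjusted p under 0.05 and FC above 1.3, downregulated the same p and FC under 0.7. Ratios had 0.5 counts added and were compared by exact two-sided permutation tests over 35 splits. The steps were tested on simulated counts. Totals of 56497675 to 96635832 counts set the counting error, and SD and standard errors cover the spread between mice. Replicates are separate mice.

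Named are the 9 genes, their ligands and partners, overlapping genes, *Atxn7*, the 5 genes most like the set (mean of 1 CPM or more), and of each list the 3 largest increases and the 2 genes at the lower end. The single values of some genes are not reported here. Other genes are named where a small count or a single library made this necessary, chosen after their values were seen. Alternatives were DESeq2 (1.42.0) size factors, total counts only, upper quartile factors, the DESeq2 Wald test, limma-voom (3.58.1), no filter beyond 1 count, a minimum of 10 counts in each library, a block for the replicate number, *Xist* as a covariate, other thresholds, other lengths and each mouse left out. Chromatin data were not analysed here.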

Additional observations from a re-analysis of the deposited data

Results flagged for a closer look

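In each value the 4 WT mice were searched for a mouse far from the rest, by Dixon's ratio of the gap to the range, set against its critical value for 4 samples. Chance flags about 1 in 20 such groups, and 10 of 116 values were above the limit. Of the 9 genes none was, but the log2 ratio of *Csf1r* to *P2ry12* was, with a Dixon ratio of 0.961 and WT replicate 3 at 1.58 against 1.92 to 1.94 in the other WT mice. Of the other microglia genes, *P2ry13* had a ratio of 0.837, with WT replicate 4 low at 0.872 CPM against 1.20 to 1.26 CPM, and *Fcer1g* one of 0.938, with WT replicate 3 high at 1.22 CPM against 1.05 to 1.06 CPM.

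Among border macrophage genes, *Mrc1* (0.938) was high in WT replicate 1, at 1.98 CPM against 0.489 to 0.581 CPM, and *Cbr2* (0.848) in WT replicate 2, at 4.32 CPM against 1.35 to 1.80 CPM. Of the cell division genes, *Mki67* (0.939) was low in WT replicate 4, at 0.0918 CPM against 0.150 to 0.154 CPM, and *Birc5* (0.927) high in WT replicate 1, at 0.359 CPM. WT replicate 3 was high for *Hbb-bs* (0.923), at 58.0 CPM against 41.3 to 42.6 CPM, and low for the pigment epithelium genes *Rgr* (0.936) and *Ttr* (0.895), the latter at 40.4 CPM against 75.8 to 79.9 CPM. Their part in the results on the 9 genes was not tested, and without WT replicate 3 all 9 genes were upregulated.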

How the results depend on the processing

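No alternative turned the direction of any of the 9 genes, and for the 7 genes other than *Selplg* and *Gpr34* none ended the call. The number upregulated was 7 to 9 over the fits that left out a mouse, with the median log2 fold change between 0.72 and 0.82. *Gpr34* passed the threshold under total counts only (0.77), the DESeq2 Wald test (0.58, adjusted p = 0.027) and limma-voom (0.63, adjusted p = 0.038). It also passed with no filter (0.60) and with the *Xist* covariate (0.54), though *Xist* was too low in every library to stand for sex. The adjusted p of *Gpr34* over these and the other alternatives lay between 0.0027 and 0.202. *Selplg* failed it without SCA7 replicate 1.

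Scaling to total counts only moved the median of all genes by 0.19. The medians were then 0.97 for the 9 genes, 0.90 for the other homeostatic genes, 1.31 for the lineage and 1.07 for disease-associated microglia, and the calls over all genes went from 1504 up and 1592 down to 3681 and 978. Without an FC threshold the calls were 2853 and 2852. Leaving out a mouse gave 1215 to 1559 up and 1196 to 1731 down, and medians of 0.63 to 0.74 for the other homeostatic genes, lowest without SCA7 replicate 2. With at least 10 counts in every library, no monocyte median could be had and the border macrophage median was 0.09 with 1 downregulated gene; fewer genes were tested there.

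Correlations of deviations were 0.010, 0.197 and 0.079 for equal replicate numbers and lay between -0.203 and 0.135 for unequal ones, which does not decide whether mice were paired. The animal numbers in the labels are close for equal replicate numbers, other than WT replicate 4. The labels do not say whether these mice were matched, and the main fit has no block for it. The replicate block, in which WT replicate 4 has no partner, called 1629 up and 1706 down and all 9 genes, with *Gpr34* at 0.42 (adjusted p = 0.025).

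Low counts limit the precision of *Aif1* and *Fcrls* in WT. Most other list counts moved little, and those of short lists with few counts (lymphocytes, red blood cells, cell division) changed with single mice; the cause was not tested.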

Other observations

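The same ratio to *P2ry12* was taken, after the data had been seen, for the 38 genes of the other microglia lists. Of the 16 lineage genes, 8 were higher in every SCA7 mouse than in every WT mouse, against 1.18% of all genes tested, *Lyl1* was lower without overlap (-0.43), and the median difference (SCA7 minus WT, log2) was 0.39. *C1qc*, *C1qb*, *Tyrobp* and *C1qa* differed by 0.78, 0.70, 0.70 and 0.69. Of the 12 disease-associated genes 4 were higher without overlap, *Cst7* by 3.59, *Itgax* by 2.03, *Clec7a* by 1.03 and *Trem2* by 0.66, and *Lpl* and *Spp1* were lower without overlap. Of the 10 other homeostatic genes none was higher without overlap and *Mertk* was lower, with a median of -0.04. In this lower direction 80.3% of all genes tested were without overlap. *Fcrls*, at 1.38, thus lay between *Itgax* and *Clec7a*, although it belongs to the homeostatic set. None of the 38 ratios passed the adjustment over the family by exact permutation (lowest adjusted p 0.0905), and 12 had a raw p under 0.05. The smallest p that 35 splits of the mice allow is 0.0286, so a ratio can pass the adjustment only where most of the 38 sit at that p, and the failure to pass says little about any of them.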
